A study of Homo sapiens with 12 samples.

Results

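The FOS family comprises FOS (ENSG00000170345), FOSB (ENSG00000125740), FOSL1 (ENSG00000175592) and FOSL2 (ENSG00000075426), which were taken by symbol from a table of 20771 genes. All 4 had a row with counts in each of the 12 libraries, and all 4 were among the 16515 genes that passed the filter on low counts. The data are bulk RNA sequencing of EW8 and TC71, a pair of human Ewing sarcoma cell lines. In both lines the endogenous RRM1 gene, which encodes the large subunit of ribonucleotide reductase, was knocked out with CRISPR/Cas9, and all groups carry a codon-optimized RRM1 transgene that doxycycline switches on. The 4 groups, with 3 libraries each, were EW8-RRM1-KO at 0 h (doxycycline present), EW8-RRM1-KO at 48 h (doxycycline absent for 48 h), TC71-RRM1-KO at 0 h and TC71-RRM1-KO at 48 h. The knockout lines were cloned from single cells, so that the clone and the cell line cannot be told apart. Doxycycline itself differs between the times in both lines. The labels do not say whether replicates are separate cultures, and p-values measure only the spread between these libraries. The comparison asks which genes respond when cells lose RRM1.

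FOS proteins hold a basic leucine zipper and bind DNA only as dimers, most often with a JUN protein, and this dimer is the transcription factor AP-1. FOS and FOSB are classical immediate early genes: they are nearly silent in unstimulated cells, are switched on within minutes through serum response factor and CREB at their promoters, and their mRNAs are cleared quickly through AU-rich elements. FOSL1 (Fra-1) and FOSL2 (Fra-2) lack the strong carboxy-terminal activation domain of FOS and FOSB, are usually induced later and persist longer, and FOSL1 is itself an AP-1 target in many cells.

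The 4 genes lie on different chromosomes of hg38, and the canonical transcript of each has 4 exons in GENCODE release 44. FOS spans chr14:75278826-75282230 on the + strand, and FOSB spans chr19:45467995-45475179 on the + strand. FOSL1 spans chr11:65892049-65900573 on the − strand, and FOSL2 spans chr2:28392448-28417317 on the + strand. FOSB overlaps ERCC1, and FOSL2 overlaps FOSL2-AS1, each on the opposite strand. FOSL2 also overlaps a long noncoding RNA gene, ENSG00000270640, on the same strand. None of these pairs shares an exon base. FOSL1 has an annotated processed pseudogene, FOSL1P1, which has no row in the table, and whether it shares reads with FOSL1 was not tested. The strand setting of the counting is not given in the sources used here.

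Promoter sequence was available for FOS, FOSB and FOSL2 in the RefSeq-based table for hg38 and was searched over 400 bases on both strands. The start meant here is that of the canonical transcript, which for FOSL2 is at 28392858. The FOSL2 gene as annotated begins earlier, at 28392448, so its window lies within the gene and describes the sequence before this start only. The FOSL2 stretch printed below ends where an annotated exon of the gene begins. The motif TGACGT, the core of the cyclic AMP response element bound by CREB, was present in all 3 promoters, at 64 bases before the start in FOS, 60 in FOSB and 66 in FOSL2. It was present in 9.16% of 35116 promoter windows of the same length. A CArG box, the site of serum response factor, began 314 bases before the start in FOS and 274 in FOSB and had no match in the FOSL2 window. Its share among all windows was 1.90%. TATAAA was found 33 bases before the start in FOS and 30 in FOSB, against 17.1% of all windows. The longer motif TGACGTCA, which contains TGACGT, was found only in FOSB, 325 bases before the start (1.89% of windows). The AP-1 site TGACTCA (6.10% of windows) and the repeat GGAAGGAA (4.91%), of the kind that the EWS::FLI1 fusion protein of Ewing sarcoma binds, had no match in the 3 windows. Only these exact letters were searched. Variants of the AP-1 site, such as the tgcgtca after the CArG box in both distal stretches below, were not. A match is a description of these letters and not evidence of binding. The proximal stretches below show how alike FOS and FOSB are in layout. They are printed with TGACGT and TATAAA in capitals, the distal stretches with the CArG box in capitals, and all are on the + strand of hg38.
FOS proximal promoter, chr14:75278718-75278825: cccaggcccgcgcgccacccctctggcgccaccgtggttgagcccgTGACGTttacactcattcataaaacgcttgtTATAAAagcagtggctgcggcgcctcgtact
FOSB proximal promoter, chr19:45467886-45467994: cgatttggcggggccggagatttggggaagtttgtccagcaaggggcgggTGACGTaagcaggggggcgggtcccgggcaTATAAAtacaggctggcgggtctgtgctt
FOSL2 proximal promoter, chr2:28392748-28392801: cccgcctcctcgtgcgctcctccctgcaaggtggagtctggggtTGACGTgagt
FOS CArG region, chr14:75278499-75278538: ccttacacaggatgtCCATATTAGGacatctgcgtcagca
FOSB CArG region, chr19:45467707-45467746: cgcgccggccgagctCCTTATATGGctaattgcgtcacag

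The libraries held 18468485 to 35698991 counts. RRM1 itself was at 9.37 to 9.67 CPM (counts scaled to library size with TMM factors) in EW8 at 0 h and at 63.9 to 74.1 CPM at 48 h. The TC71 libraries were at 15.5 to 17.3 CPM at 0 h and at 24.1 to 26.4 CPM at 48 h. The transgene is codon-optimized, and whether its reads were counted here was not tested, so these counts do not check its removal. Of 8 Ewing sarcoma markers, 8 were in the table, with a summed level of 2037 to 2097 CPM at 0 h and 2264 to 2334 CPM at 48 h in EW8, and of 1933 to 1977 CPM and 2130 to 2202 CPM in TC71. CCND1 made up most of this sum, and the members did not move together: mean NR0B1 was 73.7 and 157 CPM and mean BCL11B 79.8 and 40.5 CPM at 0 h and 48 h in EW8. Of 5 leukocyte markers, 2 were in the table, at a summed 0.740 CPM or less. Of 7 fibroblast markers, 5 were in the table, and their summed level was 159 to 165 CPM at 0 h and 253 to 261 CPM at 48 h in EW8. The same sum in TC71 was 142 to 145 CPM at 0 h and 214 to 228 CPM at 48 h. Of 5 epithelial markers, 3 were in the table, with a summed level of 6.40 to 8.78 CPM at 0 h and 21.4 to 23.4 CPM at 48 h in EW8 and of 72.1 to 74.3 CPM and 103 to 117 CPM in TC71. The part of these shifts in the results below was not tested. In bulk RNA, fewer cells of a kind and less RNA per cell cannot be told apart.

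All 4 FOS family mRNAs were higher at 48 h than at 0 h in both lines, and in every case the lowest 48 h library lay above the highest 0 h library. A gene was called when the edgeR quasi-likelihood test gave a Benjamini-Hochberg adjusted p below 0.05 over all genes and the fold was above 2. By this rule 4 of 4 members were called up in EW8, where 13.9% of all tested genes were called up, and 3 of 4 in TC71, where 3.26% were. Libraries that did not overlap, with 48 h above 0 h, were seen for 37.9% of all genes in EW8 and 25.9% in TC71. The summed level of the family was 19.2 ± 1.66 CPM (SD, n = 3) at 0 h and 185 ± 5.50 CPM at 48 h in EW8. The TC71 sum was 15.1 ± 0.492 CPM at 0 h and 83.5 ± 8.80 CPM at 48 h.

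**Figure D1:**
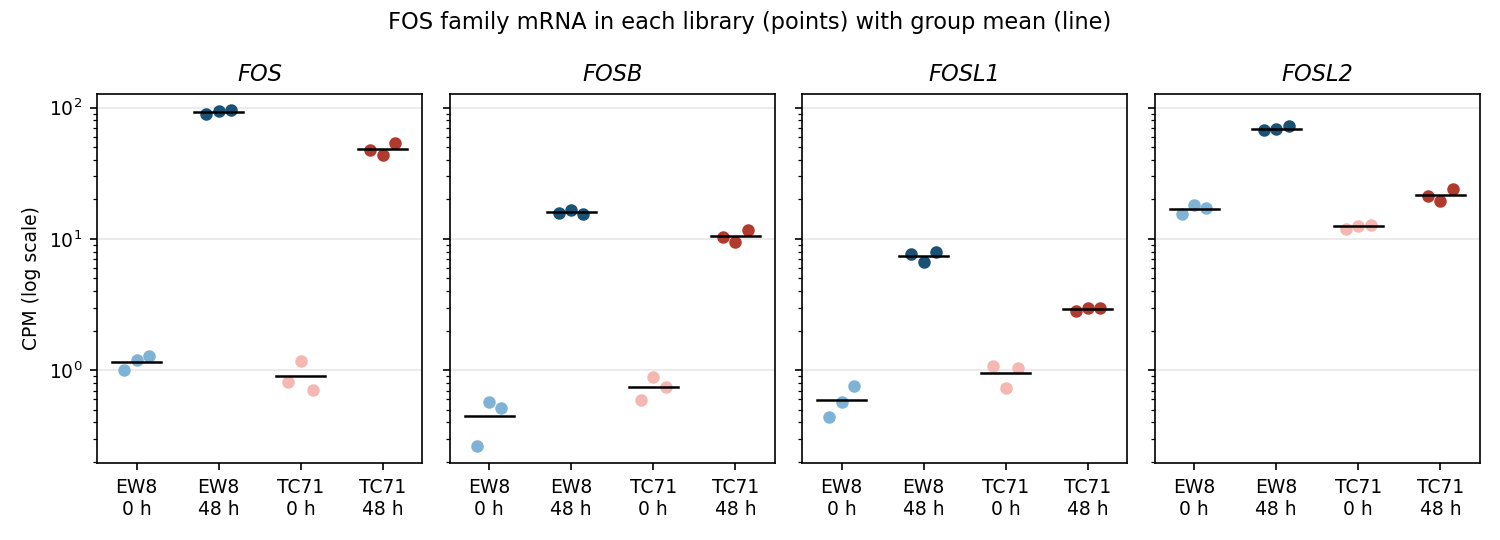
Level of each FOS family mRNA in CPM on a log scale, in the 12 libraries grouped by line and time, where points are libraries and lines are group means. All 48 h libraries sit above the 0 h libraries of the same line, with FOS at 1.28 CPM or less in each 0 h library, at 88.95 CPM or more in EW8 at 48 h and at 43.9 CPM or more in TC71 at 48 h.

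FOS, the founding member and the partner of JUN in the classical AP-1 dimer, showed the largest change of the family in both lines. In EW8 its 0 h libraries were at 1.01, 1.203 and 1.28 CPM (23, 21 and 42 counts) and its 48 h libraries at 88.95, 93.5 and 95.4 CPM (1673, 1866 and 1949 counts). TC71 libraries at 0 h were at 0.819, 1.18 and 0.703 CPM (22, 24 and 17 counts) and those at 48 h were at 47.4, 43.9 and 54.15 CPM (1243, 1177 and 1751 counts). FOS was thus close to the limit of what the depth resolves at 0 h and a well-counted gene at 48 h, and the 0 h libraries of the lines overlapped. It rose by 6.29 ± 0.17 on the log2 scale (SE) in EW8, which is 78.4-fold (adjusted p = 6.5e-31). In TC71 it rose by 5.77 ± 0.20, which is 54.7-fold (adjusted p = 1.24e-27). Among the 13902 genes with a mean of at least 10 counts in each group, the log2 fold change of FOS ranked 2 from the top in EW8 and 1 in TC71. Among all 16515 tested genes, which include genes with few or no counts at 0 h, it ranked 26 and 5.

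FOSB, the closest relative of FOS, followed at a lower level. A gene count does not separate full-length FosB from the shorter ΔFosB, which arises by splicing. In EW8 FOSB was at 0.263, 0.573 and 0.518 CPM at 0 h (6, 10 and 17 counts) and at 15.7, 16.7 and 15.6 CPM at 48 h (295, 334 and 319 counts). FOSB in TC71 was at 0.596, 0.883 and 0.745 CPM at 0 h (16, 18 and 18 counts) and at 10.3, 9.44 and 11.7 CPM at 48 h (270, 253 and 380 counts). The 3 EW8 libraries lay below the 3 TC71 libraries at 0 h, where the lines did not overlap for 68.3% of all genes, and above them at 48 h. FOSB rose 35.1-fold in EW8 (log2 5.13 ± 0.26, adjusted p = 1.35e-23) and 14.4-fold in TC71 (log2 3.84 ± 0.21, adjusted p = 1.37e-19). Its log2 fold change ranked 8 in EW8 and 7 in TC71 among the same 13902 genes, and 52 and 29 among all 16515.

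FOSL1 was the least counted member at 48 h and the one with the largest difference in response between the lines by point estimate. In EW8 it was at 0.438, 0.573 and 0.763 CPM at 0 h (10, 10 and 25 counts) and at 7.71, 6.67 and 7.93 CPM at 48 h (145, 133 and 162 counts). FOSL1 in TC71 was at 1.08, 0.736 and 1.03 CPM at 0 h (29, 15 and 25 counts) and at 2.82, 2.98 and 2.97 CPM at 48 h (74, 80 and 96 counts). The lines overlapped at 0 h, and at 48 h every EW8 library was above every TC71 library. FOSL1 rose 12-fold in EW8 (log2 3.59 ± 0.23, adjusted p = 2.66e-18) and 3.02-fold in TC71 (log2 1.597 ± 0.20, adjusted p = 2.25e-08).

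FOSL2 was the member with the highest level in both lines at 0 h. In EW8 it was at 15.5, 17.99 and 17.3 CPM at 0 h (355, 314 and 567 counts) and at 67.5, 68.3 and 71.9 CPM at 48 h (1269, 1362 and 1469 counts). FOSL2 in TC71 was at 11.99, 12.6 and 12.8 CPM at 0 h (322, 257 and 309 counts) and at 21.1, 19.4 and 24.2 CPM at 48 h (552, 521 and 782 counts). FOSL2 rose 4.09-fold in EW8 (log2 2.03 ± 0.07, adjusted p = 2.27e-23). In TC71 FOSL2 was 1.74-fold higher (log2 0.80 ± 0.08, adjusted p = 2.87e-10), below the 2-fold threshold, and was the 1 member not called there. An adjusted p below 0.05 with a higher level at 48 h, whatever the fold, was found for 22.9% of all genes in TC71.

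In TC71 at 48 h, replicate 3 was the highest library for FOS, FOSB and FOSL2. The family sum there was 93.1 CPM, against 81.6 and 75.75 CPM in replicates 1 and 2. JUN was also highest in that library, at 257 CPM against 220.5 and 205 CPM. Of the members' comparisons, that of FOS between the lines at 48 h was the 1 whose call changed without this library.

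The size of the response differed between the lines for 3 of the 4 members. The difference of the EW8 and TC71 log2 fold changes was 1.29 ± 0.34 for FOSB (adjusted p = 0.0016), 1.99 ± 0.31 for FOSL1 (adjusted p = 1.4e-06) and 1.23 ± 0.10 for FOSL2 (adjusted p = 1.15e-11), all larger in EW8. A larger value in EW8 was called for 7.28% of all tested genes. For FOS the difference was 0.52 ± 0.26, with a 95% interval from −0.01 to 1.05 (adjusted p = 0.106), and was not called. The estimate for FOSL2 lies above the upper end of this interval, and the upper end itself is slightly past 2-fold. With single libraries left out it ranged from 0.30 without TC71 0 h replicate 2 (edgeR adjusted p = 0.441) to 0.66 without TC71 0 h replicate 3 (adjusted p = 0.0622). Without TC71 48 h replicate 3 it was 0.61 (adjusted p = 0.0377), still below 2-fold.

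**Figure D2:**
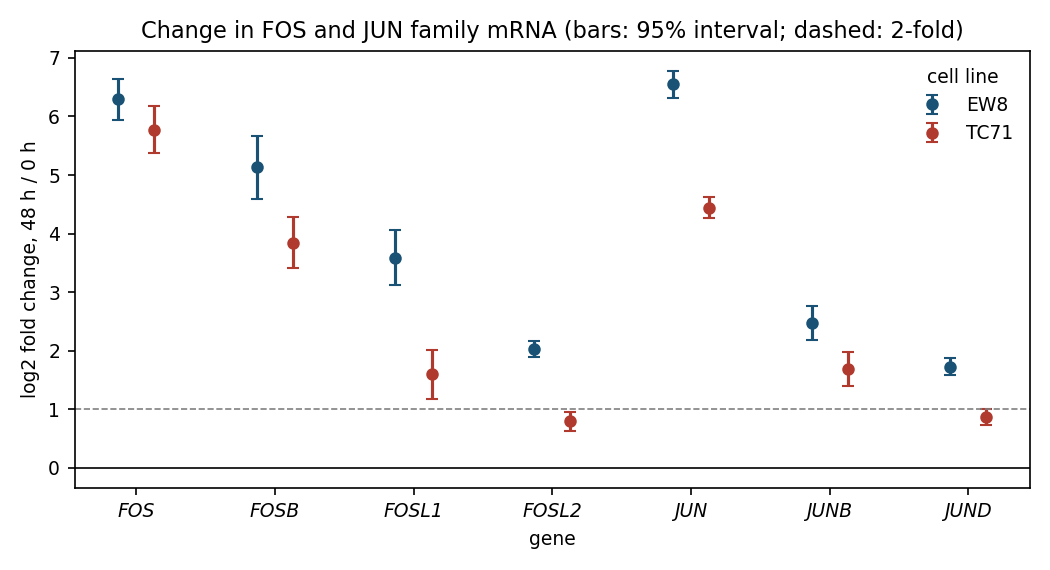
Log2 fold change from 0 h to 48 h of FOS family and JUN family mRNA in EW8 and TC71, with 95% intervals from the edgeR fit and a dashed line at 2-fold. FOS is the 1 gene of the 7 whose intervals in the lines overlap (6.29 in EW8 and 5.77 in TC71), and FOSL2 and JUND lie below 2-fold in TC71.

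Between the lines at the same time, no member was called at 0 h, where 16.7% of all tested genes were called in either direction, and DESeq2 called 0 members too. By unadjusted p below 0.05 in edgeR, 3 members differed, and of these FOSL1 and FOSL2 also had an adjusted p below 0.05. At that adjusted p with no fold threshold, 32.8% of all genes were higher and 32.9% lower in EW8, so these counts are not set apart from the background. The EW8 minus TC71 log2 difference at 0 h was 0.41 ± 0.25 for FOS (adjusted p = 0.151), −0.69 ± 0.33 for FOSB (adjusted p = 0.0583), −0.65 ± 0.28 for FOSL1 (adjusted p = 0.036) and 0.44 ± 0.08 for FOSL2 (adjusted p = 1.47e-05). FOSB and FOSL1 were thus lower and FOS and FOSL2 higher in EW8 by point estimate. With single libraries left out the values ranged from 0.27 (without TC71 0 h replicate 3) to 0.63 (without TC71 0 h replicate 2) for FOS, and from −0.86 (without EW8 0 h replicate 3) to −0.43 (without EW8 0 h replicate 1) for FOSB. For FOSL1 the adjusted p was 0.168 without EW8 0 h replicate 1 and 0.0575 by DESeq2, so that this difference is not firm. At 48 h all 4 members were higher in EW8 with libraries that did not overlap, as for 74.6% of genes in either direction. FOSL2 (log2 1.68 ± 0.07, 3.20-fold, adjusted p = 7.67e-22) and FOSL1 (log2 1.34 ± 0.13, 2.54-fold, adjusted p = 4.47e-11) were called, where 10.5% of all genes were called higher in EW8. FOS (log2 0.93 ± 0.06, 1.91-fold, adjusted p = 2.11e-15) and FOSB (log2 0.60 ± 0.10, 1.52-fold, adjusted p = 8.6e-07) stayed below 2-fold. Without TC71 48 h replicate 3, the FOS difference was 1.02 and passed the threshold.

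The makeup of the family turned over with the time without doxycycline. Of all counts on the 4 genes, FOSL2 held 88.6 ± 1.5% (SD, n = 3) in EW8 at 0 h and 37.4 ± 0.435% at 48 h, and 82.8 ± 0.945% and 25.8 ± 0.170% in TC71. FOS held 6.07 ± 0.335% at 0 h and 49.99 ± 0.515% at 48 h in EW8, and 5.97 ± 1.54% and 58.1 ± 0.122% in TC71. FOSL2 held the larger share in each 0 h library, and FOS in each 48 h library.

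The FOSB share was 2.32 ± 0.695% at 0 h and 8.65 ± 0.433% at 48 h in EW8, and 4.91 ± 0.810% and 12.6 ± 0.0954% in TC71. The FOSL1 share was 3.07 ± 0.686% and 4.01 ± 0.365% in EW8, and 6.34 ± 1.39% and 3.53 ± 0.379% in TC71, so that its direction differed between the lines by point estimate. The half-width of the exact binomial 95% interval of a single library's share was at most 4.41 percentage points at 0 h and 2.17 at 48 h. These intervals cover counting error only.

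The shares were tested by an exact permutation test, two-sided, with times exchanged within lines over 400 arrangements. Averaged over the lines, the share of FOS was 48.0 percentage points higher at 48 h, that of FOSB 6.996 points higher and that of FOSL2 lower by 54.1 points. Each of the 3 had an exact permutation p of 0.005, the smallest that the design can give, and an adjusted p of 0.00667 over the 4 members. For FOSL1 the mean difference was −0.93 points, from 0.949 in EW8 and −2.81 in TC71 (exact permutation adjusted p = 0.28). Within 1 line the smallest p of 3 against 3 libraries is 0.1, and FOS, FOSB and FOSL2 reached it in both lines. FOSL1 reached it in TC71, where each 0 h share (4.78 to 7.46%) was above each 48 h share (3.19 to 3.94%), and had an exact permutation p of 0.2 in EW8. The 4 shares sum to a whole, so these tests are not independent of each other.

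**Figure D3:**
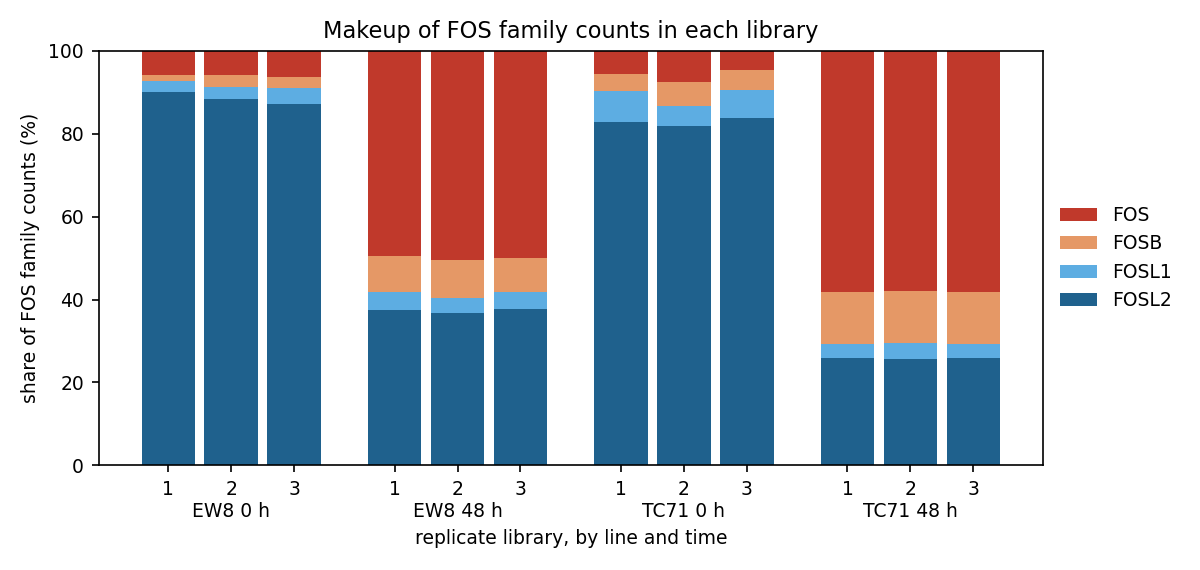
Share of each member among FOS family counts in percent, as stacked bars for the 12 libraries by line and time. FOSL2 fills over 80% of each 0 h bar, whereas FOS fills 49.5% to 50.5% of the EW8 bars and 57.95% to 58.2% of the TC71 bars at 48 h.

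In TC71 at 48 h the family sum ranged from 75.75 to 93.05 CPM, but the FOS share was 58.1, 57.95 and 58.2% in the 3 libraries. The ratio of FOS to FOSL2 counts there was 2.25 ± 0.0102, and it had been 0.0722 ± 0.0195 at 0 h. In EW8 this ratio was 0.0686 ± 0.00487 at 0 h and 1.34 ± 0.0278 at 48 h. The ratio of FOS to FOSB counts was 2.80 ± 0.913 and 5.79 ± 0.281 in EW8, and 1.22 ± 0.237 and 4.62 ± 0.0266 in TC71.

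Counts favour long transcripts, and the canonical transcripts measure 2104 bases for FOS, 3775 for FOSB, 1702 for FOSL1 and 6713 for FOSL2. Per kilobase of transcript, FOSL2 was the highest member at 0 h in EW8 at 2.52 ± 0.187 CPM per kb, ahead of FOS at 0.553 ± 0.0670, FOSL1 at 0.347 ± 0.0958 and FOSB at 0.120 ± 0.0439, with no overlap between neighbours. At 48 h in EW8 the order of levels was FOS at 44.02 ± 1.58 CPM per kb, FOSL2 at 10.3 ± 0.351, FOSL1 at 4.37 ± 0.396 and FOSB at 4.24 ± 0.168. The last pair overlapped on this length.

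In TC71 at 0 h FOSL2 led at 1.86 ± 0.0617 CPM per kb, followed by FOSL1 at 0.558 ± 0.110 and FOS at 0.428 ± 0.117, which overlapped, and FOSB at 0.196 ± 0.0380. At 48 h FOS led at 23.05 ± 2.47 CPM per kb, ahead of FOSL2 at 3.21 ± 0.360 and FOSB at 2.78 ± 0.310, which overlapped, and FOSL1 at 1.72 ± 0.0517. In TC71 at 48 h FOSB was thus above FOSL1 in every library. The order of close neighbours depends on the length used. With the union of all annotated exons as length, FOSL1 at 3.53 to 4.20 CPM per kb lay above FOSB at 2.81 to 3.02 in EW8 at 48 h, while FOS and FOSL1 overlapped in EW8 at 0 h. On that length no neighbours overlapped in TC71. FOSL2 was still the highest member at 0 h and FOS at 48 h in both lines.

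Set against 15991 genes with a transcript length, FOS per kilobase exceeded 19.7% of genes at 0 h and 89.0% at 48 h in EW8, and 13.5% and 79.6% in TC71. FOSL2 exceeded 38.5% and 61.2% in EW8, and 32.2% and 39.7% in TC71. FOSB went from 6.77% to 44.5% in EW8 and from 7.30% to 37.5% in TC71, and FOSL1 from 14.5% to 45.0% and from 16.4% to 30.4%. On this scale the share of FOS in the family was 57.6 points higher at 48 h, that of FOSB 3.01 points higher and that of FOSL2 changed by −52.8 points. The share of FOSL1 per kilobase was lower by 7.78 points (exact permutation adjusted p = 0.005), a call that the share of raw counts did not give. It was lower at 48 h in both lines, at 9.71% and 6.94% in EW8 and 18.4% and 5.625% in TC71. The direction in EW8 was thus opposite to that of the share of raw counts.

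**Figure D4:**
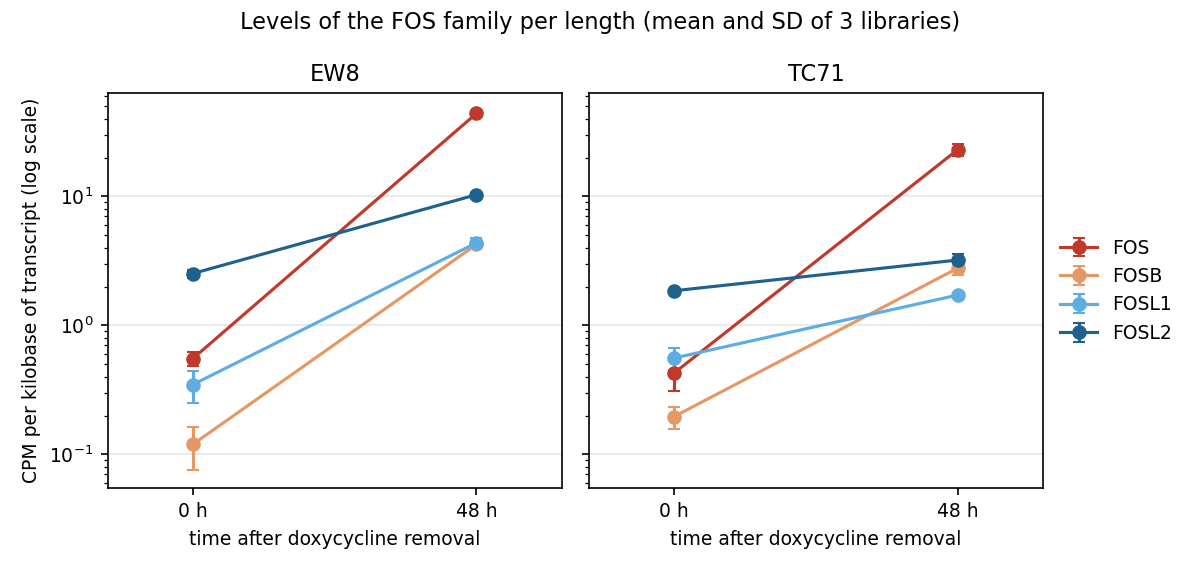
CPM per kilobase of canonical transcript on a log scale at 0 h and 48 h, with the mean and SD of 3 libraries, in EW8 (left) and TC71 (right). FOS crosses above FOSL2 in both lines, and at 48 h FOSB overlaps FOSL1 in EW8, which it does not with union exon lengths, and exceeds it in TC71.

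The JUN proteins are the most common partners of the FOS family, and JUN is itself an immediate early gene. JUN rose 93.6-fold in EW8 (log2 6.55 ± 0.11, adjusted p = 6.28e-24) and 21.7-fold in TC71 (log2 4.44 ± 0.08, adjusted p = 1.06e-20), at a difference between the lines of 2.11 ± 0.14 (adjusted p = 4.5e-11). JUNB rose 5.56-fold in EW8 (adjusted p = 6.99e-09) and 3.21-fold in TC71 (adjusted p = 1.2e-06). JUND, which many cells express without stimulation, rose 3.31-fold in EW8 (adjusted p = 1.62e-16) and was 1.83-fold higher in TC71 (adjusted p = 1.91e-10), below the threshold. Of the 3 partners, 3 were called up in EW8 and 2 in TC71, where 13.9% and 3.26% of all genes were. FOSL2 and JUND had the smallest log2 fold change of their family in each line, and each was the 1 member of its family not called in TC71.

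The genes that control FOS transcription were counted next. Of 10 transcriptional regulators (SRF, ELK1, ELK3, ELK4, MRTFA, MRTFB, CREB1, CREBBP, EP300 and STAT3), 0 were called in either line, where 17.2% of all genes in EW8 and 4.12% in TC71 were called in either direction, so that 0 of 10 is near the background. By adjusted p below 0.05 in edgeR with no fold threshold, 5 were higher and 4 lower in EW8, and 1 higher and 3 lower in TC71 (4 lower at an unadjusted p below 0.05), and DESeq2 also called 0 in both lines. Over all tested genes the shares at this adjusted p were 37.0% higher and 31.6% lower in EW8, and 22.9% and 19.2% in TC71. The share of all genes at an unadjusted p was not counted. The widest values were 0.74 ± 0.05 for MRTFA and −0.66 ± 0.08 for MRTFB in EW8, both named after their values were seen. The regulators had medians of 0.10 (EW8) and −0.03 (TC71) on the log2 scale, where those of all tested genes were 0.03 and −0.00. Phosphorylation, through which most of these factors are activated, is not measured by RNA sequencing.

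Of 13 kinases of the MAPK routes to FOS, 1 was called up in EW8 and 0 in TC71, near the 13.9% and 3.26% of all genes called up. By adjusted p below 0.05 in edgeR with no fold threshold, 2 were higher and 7 lower in EW8, and 4 were higher and 1 lower in TC71 (5 and 2 at an unadjusted p below 0.05), where DESeq2 also called 0. At this adjusted p, 37.0% of all genes were higher and 31.6% lower in EW8, and 22.9% and 19.2% in TC71. BRAF, which activates the MEK and ERK kinases, was the 1 called, at a log2 fold change of 1.03 ± 0.05 (adjusted p = 3.72e-18). It fell below 2-fold without EW8 0 h replicate 2 (0.98), EW8 0 h replicate 3 (0.98) or TC71 0 h replicate 2 (0.997). The median of the list was −0.12 in EW8 and 0.05 in TC71.

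Of 6 factors that act on AU-rich mRNAs such as FOS mRNA, 2 were called up in EW8 and 1 in TC71, where 13.9% and 3.26% of all genes were. With no fold threshold, the other 4 (ZFP36L2, KHSRP, HNRNPD and ELAVL1, named after their values were seen) had an adjusted p below 0.05 with lower levels in EW8, at log2 fold changes from −0.49 to −0.37, and 3 of them in TC71. Lower levels at this adjusted p were found for 31.6% of all genes in EW8 and 19.2% in TC71. ZFP36 (tristetraprolin), which promotes decay and is itself induced by growth factors, was called in both lines, with log2 fold changes of 2.72 ± 0.13 (EW8, adjusted p = 2.4e-20) and 1.79 ± 0.11 (TC71, adjusted p = 4.25e-15). ZFP36L1 rose by 2.11 ± 0.05 in EW8 (adjusted p = 3.45e-27) and was 0.91 ± 0.05 higher in TC71, below 2-fold. The median of the 6 was −0.40 in EW8 and −0.09 in TC71.

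Most immediate early genes that share serum response control with FOS also rose. Of 14 genes in this list, 13 were called up in EW8 and 10 in TC71, where 13.9% and 3.26% of all genes were, and 0 were called down in either line, where 3.35% and 0.854% were. By adjusted p below 0.05 in edgeR with no fold threshold, 1 gene, SRF, was lower in each line. Over all genes 31.6% were lower in EW8 and 19.2% in TC71. Medians on the log2 scale were 2.68 (EW8) and 1.59 (TC71). EGR1, a zinc finger transcription factor, rose by 5.49 ± 0.07 in EW8 and by 4.03 ± 0.06 in TC71, and its relative EGR3 rose by 6.23 ± 0.27 and 3.92 ± 0.18. CCN2 (connective tissue growth factor) rose by 3.91 ± 0.16 in EW8, and NR4A1, an orphan nuclear receptor, by 2.31 ± 0.09 in TC71. SRF, which is in both this list and that of regulators, had log2 fold changes of −0.38 ± 0.05 in EW8 and −0.24 ± 0.05 in TC71. KLF4 had at most 1 count in any TC71 library, so no fold is given there. Without it the TC71 median was 1.68.

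Of 25 known AP-1 targets, 18 were tested, 9 were called up in EW8 and 5 in TC71, where 13.9% and 3.26% of all genes were. DUSP1, called up in both lines, is also in the list of immediate early genes and is counted in each. None was called down (0 of 18 in either line), near the 3.35% and 0.854% of all genes. At an unadjusted p below 0.05 in edgeR, 3 were lower in EW8 and 2 in TC71. By adjusted p below 0.05 with no fold threshold, 13 were higher and 3 lower in EW8, and 12 and 1 in TC71. Over all genes these shares were 37.0% and 31.6% in EW8, and 22.9% and 19.2% in TC71. The 18 had medians of 0.84 (EW8) and 0.35 (TC71) on the log2 scale. CXCL8, the chemokine interleukin-8, had 1, 2 and 2 counts in EW8 at 0 h and 287, 336 and 301 at 48 h, which is at least 119-fold higher when the 0 h libraries are placed at 3 counts each. In TC71 it rose by 3.06 ± 0.24 on the log2 scale, from 16, 16 and 10 counts to 114, 137 and 173. PLAU, the urokinase plasminogen activator, rose by 5.87 ± 0.44 in EW8 from 3, 2 and 7 counts and by 3.65 ± 0.52 in TC71 from 1, 5 and 3 counts. With single libraries left out, the PLAU change in TC71 ranged from 3.16 to 4.29. MMP10 (stromelysin-2), a matrix metalloproteinase, rose by 3.98 ± 0.60 in EW8, from 2, 2 and 4 counts to 24, 39 and 44. In TC71 it went from 2, 1 and 0 counts to 1, 9 and 5 and was not called (edgeR adjusted p = 0.0598), but it was called without TC71 48 h replicate 1 (adjusted p = 0.0172). HBEGF, a ligand of the EGF receptor, rose by 2.96 ± 0.29 in EW8 (3.599 without 0 h replicate 3) and by 1.73 ± 0.27 in TC71. With MMP10 in TC71 placed at its bound and MMP13, at 3 counts or fewer in every TC71 library, left out, the TC71 median was 0.34.

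**Figure D5:**
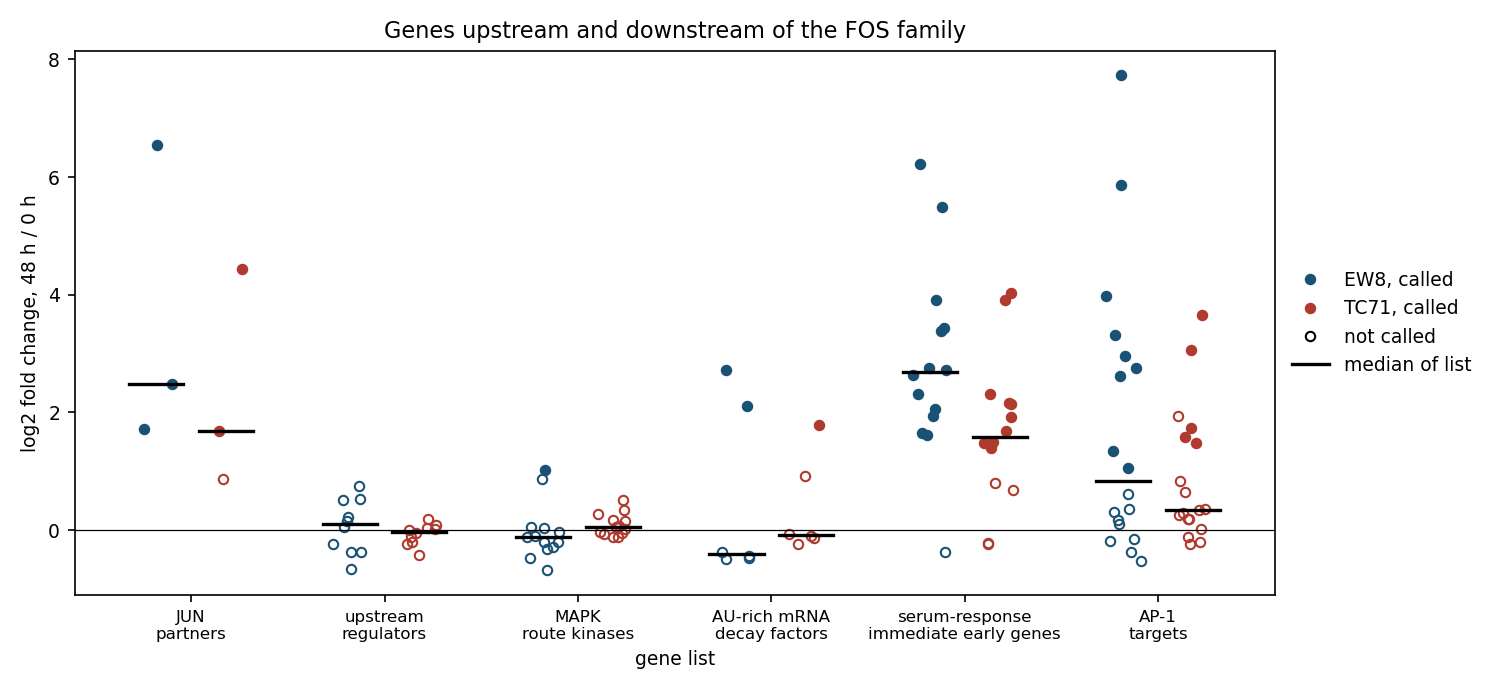
Log2 fold change from 0 h to 48 h of each tested gene in 6 lists around the FOS family, with EW8 and TC71 side by side, filled points for genes called and black lines for list medians. Regulators and kinases lie on both sides of 0 and JUN partners and immediate early genes lie mostly above 1, while AP-1 targets range from −0.52 to 5.87 in EW8, apart from CXCL8, the top point, whose fitted value is not firm because of its 0 h counts.

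The genes whose course over the 12 libraries was closest to each member were found by the root mean square (RMS) difference of centred log2 CPM among 13902 genes. For FOS these were JUN (0.509), EGR1 (0.563) and NEU4, a sialidase (0.580), where the median over all genes was 2.78. For FOSB they were NEU4 (0.501), APOH (0.508) and CDKN1A, which encodes the cell-cycle inhibitor p21 (0.510), against a median of 1.87. For FOSL1 they were IFIT3, an interferon-induced gene (0.173), CREM, a relative of CREB (0.179), and FN1, which encodes fibronectin (0.199), against a median of 1.17. For FOSL2 they were PAX3, a developmental transcription factor (0.0798), ZYX, a focal adhesion protein (0.107), and SERPINE2, a protease inhibitor (0.125), against a median of 0.959. NEU4 was the 1 gene close to more than 1 member, and no member was among the 3 nearest of another. These names depend on the measure of likeness: by Pearson correlation, 0 of the 3 closest genes were the same for FOS, for FOSB and for FOSL1. The RMS difference was larger for FOS and FOSB than for FOSL1 and FOSL2, in the order of their fold changes. The 12 libraries form 4 groups, and a small difference describes shared steps between them.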

How the data were processed

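The authors isolated RNA, prepared poly(A)-selected stranded libraries, sequenced paired-end reads of 100 bases and aligned these with STAR to the hg38 genome. The deposited table holds raw counts per gene for 12 libraries, and the counting tool and annotation are not given in the sources used here. No gene summed to fewer than 21 counts over the libraries.

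The test was the quasi-likelihood test of edgeR 4.0.16, run in R 4.3.3 (filterByExpr with a minimum count of 10 and a minimum total of 15, TMM, robust fit over 4 groups). P-values were adjusted by the Benjamini-Hochberg method over 16515 genes. Calls needed both an adjusted p under 0.05 and a change over 2-fold. Standard errors are Wald errors of the fitted log2 fold change. The procedure was tested on simulated data. CPM per kilobase used canonical transcripts of GENCODE release 44, which matched 19943 genes. DESeq2 1.42.0 was an alternative.

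Members, lists and tests were chosen with earlier results of these data known. Named genes were the members, RRM1, the JUN genes, the up to 3 genes with the largest change in each list and line among those called with libraries that did not overlap, the 3 genes closest to each member, and called genes whose start lies within 100 kb of a member. SRF, KLF4, MMP13 and DUSP1 were named after their values were seen. Of the AP-1 target list, 1 gene is not reported here and is left out of its counts and medians. Cell-type markers were summed as lists.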

Additional observations from a re-analysis of the deposited data

Results flagged for a closer look

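The difference between the lines in the 48 h minus 0 h change (EW8 minus TC71, log2) passed the edgeR test with a fold above 2 for 3 members of the FOS family, FOSB (1.29), FOSL1 (1.99) and FOSL2 (1.235). It also did so for JUN (2.11) and for RRM1 (2.23), the targeted gene.

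The same was called for 8 of 14 immediate early genes, 6 of 18 AP-1 targets and 1 of 6 factors that act on AU-rich mRNAs. Over all genes 7.28% were called larger in EW8. Of those named in the report, these were the immediate early genes EGR1 (1.455), EGR3 (2.31) and CCN2 (2.24) and the decay factor ZFP36L1 (1.199). The AP-1 targets among them were CXCL8 (4.665), PLAU (2.215) and HBEGF (1.231). DUSP1 (1.266) is an immediate early gene and an AP-1 target in these lists and is counted in both. CXCL8 had at most 2 counts in each EW8 library at 0 h, so that its value is not firm, and PLAU was at 1.55 with an adjusted p of 0.189 without TC71 0 h replicate 2. HBEGF was at 1.89 without EW8 0 h replicate 3, which also moved its EW8 change from 2.96 to 3.599.

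The genes closest to a member were chosen for their course over these libraries, so that their differences describe that choice and are no separate result. The values were NEU4 (1.575), APOH (2.02), CDKN1A (1.35), IFIT3 (1.96), CREM (1.57), FN1 (1.305), PAX3 (1.12) and SERPINE2 (1.13), and JUN and EGR1 above are also among them. Among genes next to a member the difference was called for EFEMP2 (1.04) and PPM1N (1.304). EFEMP2 fell below 2-fold without EW8 0 h replicate 2 (0.999), EW8 0 h replicate 3 (0.99) or TC71 0 h replicate 2 (0.997). PPM1N lost its call without EW8 0 h replicate 3 (0.83, adjusted p = 0.148) or EW8 48 h replicate 2 (1.15, adjusted p = 0.056).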

How the results depend on the processing

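All called changes of the members kept their direction and call under every alternative that could be fitted, and no called result reversed. FOSB could not be tested with at least 10 counts in every library. The members' 48 h changes ranged from 6.17 to 6.42 for FOS, 4.85 to 5.28 for FOSB, 3.38 to 3.86 for FOSL1 and 1.94 to 2.16 for FOSL2 in EW8 (log2). In TC71 they ranged from 5.63 to 5.97, 3.70 to 3.96, 1.45 to 1.70 and 0.70 to 0.87. With single libraries left out, the EW8 minus TC71 difference of FOS at 48 h ranged from 0.86 to 1.02. With no fold threshold, calls were gained for FOS (0.93) and FOSB (0.60) between the lines at 48 h, FOSL1 (−0.65) and FOSL2 (0.44) between the lines at 0 h, and FOSL2 in TC71 (0.80). The one for FOSL1 was lost again by DESeq2 (adjusted p = 0.0575) and without EW8 0 h replicate 1 (0.168) or 2 (0.0737) or TC71 0 h replicate 1 (0.135) or 3 (0.093).

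Replicate numbers shared across times did not pair the samples, and the correlation of deviations within a number ran from −0.294 to 0.0238. With the replicate number as a block, the FOS difference between the lines was 0.54 (edgeR adjusted p = 0.0784), and no member's call changed.

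Called genes were 2848, 680, 1364, 2751 and 3553 for EW8, TC71, the difference between them, and the lines at 0 h and at 48 h. With at least 10 counts in every library they were 1510, 233, 732, 1368 and 1966, and with no fold threshold 11329, 6955, 7940, 10854 and 12014. With no fold threshold, genes called in either direction in EW8 and TC71 were 9 and 4 of 10 regulators and 9 and 5 of 13 kinases. They were 6 and 5 of 6 factors that act on AU-rich mRNAs and 16 and 13 of 18 AP-1 targets. Over all genes, 37.0% were higher and 31.6% lower in EW8, and 22.9% and 19.2% in TC71. With single libraries left out, called kinases in EW8 ranged from 0 to 1. Per kilobase, the FOSL1 share changed by −7.78 points. With the union of exons as length, the ratio of FOS to FOSL2 per kilobase was 0.154 and 3.01 in EW8 and 0.162 and 5.06 in TC71 at 0 h and 48 h. By Pearson correlation, 0 of the 3 closest genes were the same for FOS, FOSB and FOSL1. Within 500 kb, neighbours called in either direction in EW8 and TC71 were 2 and 2 of 14 for FOS, 4 and 3 of 31 for FOSB (1 of the 3 lower), 6 and 1 of 42 for FOSL1 (2 of the 6 lower) and 0 and 1 of 4 for FOSL2 (lower), where 17.2% and 4.12% of all genes were called.

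At 0 h, FOS, FOSB and FOSL1 had 6 to 42 counts a library, which sets the error of their folds. The annotation behind the counts is not known here, so reads shared with overlapping genes could not be reassigned.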

Other observations

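Genes on the same chromosome stretch as the members were described by position, with starts within 100 kb. No tested gene lay that near to FOS or FOSL2. Of 7 tested near FOSB, 2 were called up in EW8 and 0 in TC71, and these counts, of so few genes, are not set apart from the 13.9% and 3.26% of all genes called up. PPP1R13L, which encodes an inhibitor of p53, rose by 1.25 ± 0.23 on the log2 scale in EW8 (edgeR adjusted p = 6.29e-06) and was 0.60 ± 0.17 higher in TC71. PPM1N, a phosphatase gene, rose by 1.40 ± 0.44 in EW8 from 9, 4 and 4 counts to 10, 15 and 12 counts, a call lost without EW8 0 h replicate 3 (0.91, adjusted p = 0.0714).

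ERCC1, the DNA repair gene that overlaps FOSB on the other strand, was at 1541, 1306 and 2229 counts at 0 h and 1177, 1158 and 1264 counts at 48 h in EW8. On the log2 scale it differed by −0.20 ± 0.05 in EW8 and −0.07 ± 0.05 in TC71, against 5.13 and 3.84 for FOSB. It was named after its values were seen.

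Of 9 tested genes near FOSL1, 1 was called up in EW8 and 0 in TC71, near the same shares. EFEMP2, which encodes fibulin-4 of the extracellular matrix, rose by 1.78 ± 0.21 in EW8 (edgeR adjusted p = 8.17e-10) and was 0.74 ± 0.09 higher in TC71.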
